A study of Arabidopsis thaliana with 6 samples.

Results

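The genes described here are 8 trehalose-6-phosphate synthase genes (TPS1 and TPS5 to TPS11) and the genes of the SnRK1 kinases KIN10 and KIN11 of Arabidopsis thaliana. They were chosen by locus identifier, without use of measured values, and make up 10 of the 33602 loci of the expression table. RNA came from whole seedlings in 2 groups: cfm6-1, labelled CFM6-/- in the Col-0 background, and wild type (WT) Col-0. Both groups were kept at 22 °C under a cycle of 16 h light to 8 h dark, received 1% sucrose in the medium and were taken at day 14. The labels describe the 3 libraries of each group as biological replicates. The mutant is a single line, the number of seedlings behind each library is not given, and neither is the hour of harvest within the light cycle. The series title places CFM6, a CRM domain protein, in the splicing of a group II intron of the mitochondrial gene nad5. The loss of CFM6 is the labelled difference between the groups.

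TPS enzymes join UDP-glucose and glucose 6-phosphate to trehalose 6-phosphate (T6P), a sugar phosphate that follows the level of sucrose in plant cells. T6P phosphatases (TPP) turn it into trehalose, which trehalase splits into glucose. TPS1 is the class I enzyme that makes T6P in most tissues, while TPS5 to TPS11 are class II proteins, which carry a TPS-like and a TPP-like domain and for which synthase activity is not established. SnRK1 is a kinase complex that is active when carbon or energy is short, and T6P inhibits it in growing tissue. Its catalytic subunit is KIN10 or KIN11, joined by a β subunit and a γ-type subunit. Class II genes are known as sugar-responsive transcripts: starvation raises TPS8 to TPS11 and lowers TPS5, and KIN10 expressed in leaf cells raises several of them.

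The 10 genes split into 3 patterns in cfm6-1. TPS6, TPS8, TPS9, TPS10, TPS11 and KIN11 fell, TPS5 rose, and TPS1, TPS7 and KIN10 did not pass the test. Among the 10, TPS11 had the largest fall, to 29.2% of the WT mean, and TPS5 the only rise, 1.60-fold. Values are RPKM (reads per kilobase of gene model and per 1 M reads), deposited by the authors. Tests used limma on log2(RPKM + 1), and a gene was called at an adjusted p below 0.05 over all 20047 tested loci. All 10 genes passed the filter of 1 RPKM in at least 3 libraries. Of all tested loci, 38.6% were called higher and 30.2% lower in cfm6-1, 68.8% in all. The libraries of the genotypes did not overlap at 74.3% of loci, with cfm6-1 above WT at 41.5% and below it at 32.8%. With 7 of 10 called and 7 of 10 not overlapping, the genes were called about as often as any tested locus, so these counts are no result about them. Their median log2 change was -0.55, against 0.05 over all tested loci.

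Promoter windows are given for 4 class II genes, picked by measured change and by a match to the motif TATCCA. TPS10 and TPS11 fell and carry that motif, TPS5 rose, and TPS7 did not pass. The windows of TPS8 and TPS9, which fell and carry the motif ACGT, are not printed. Each window holds the 300 bases before the annotated gene start in RefSeq's annotation of TAIR10.1, read 5′ to 3′ on the gene's strand. The start is that of the transcript reaching farthest upstream, so a transcript that starts farther downstream has a longer distance to these letters. Capitals mark matches on either strand to TATCCA, an element known from sugar-repressed amylase genes of rice (TGGATA on the other strand), and to ACGT, the core that bZIP factors bind.
TPS10 (chr1:22181741-22182040, minus strand): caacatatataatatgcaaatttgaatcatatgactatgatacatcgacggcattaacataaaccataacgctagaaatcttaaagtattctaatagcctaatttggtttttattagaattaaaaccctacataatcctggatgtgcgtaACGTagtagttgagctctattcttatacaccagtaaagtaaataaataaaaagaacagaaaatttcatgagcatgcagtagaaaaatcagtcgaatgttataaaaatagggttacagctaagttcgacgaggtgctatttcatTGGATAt
TPS11 (chr2:8108598-8108897, plus strand): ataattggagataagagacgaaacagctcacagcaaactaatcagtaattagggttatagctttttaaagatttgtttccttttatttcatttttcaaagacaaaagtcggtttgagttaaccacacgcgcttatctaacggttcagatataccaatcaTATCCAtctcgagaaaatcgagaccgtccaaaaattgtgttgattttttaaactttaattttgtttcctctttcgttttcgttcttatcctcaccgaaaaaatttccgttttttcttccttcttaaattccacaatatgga
TPS5 (chr4:9875872-9876171, plus strand): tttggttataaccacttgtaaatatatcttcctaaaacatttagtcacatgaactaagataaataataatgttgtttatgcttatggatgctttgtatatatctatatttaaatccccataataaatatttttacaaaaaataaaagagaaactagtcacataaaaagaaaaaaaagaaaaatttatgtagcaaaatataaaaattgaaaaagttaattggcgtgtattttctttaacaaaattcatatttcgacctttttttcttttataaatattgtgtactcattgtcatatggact
TPS7 (chr1:1954374-1954673, plus strand): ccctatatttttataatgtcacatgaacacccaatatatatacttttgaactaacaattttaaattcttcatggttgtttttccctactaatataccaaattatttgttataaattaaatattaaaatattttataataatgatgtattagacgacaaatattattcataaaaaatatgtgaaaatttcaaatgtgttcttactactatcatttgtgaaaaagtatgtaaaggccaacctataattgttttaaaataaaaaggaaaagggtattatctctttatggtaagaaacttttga
Windows of 9 of the 10 genes are described. TATCCA was found in 2 of the 4 windows of TPS8 to TPS11, which fell (TPS10 and TPS11), and in 0 of the 3 others (TPS1, TPS5 and TPS7), against 16.2% of 27443 windows of protein-coding genes. ACGT was found in 3 of those 4 (TPS8, TPS9 and TPS10) and in 0 of the 3 others, against 49.0% of all windows. The window of KIN10, which did not pass, held 1 ACGT and no TATCCA, and it overlaps the neighbouring locus AT3G01100. That of KIN11, which fell, held neither motif. Over the 9 windows TATCCA was found in 2 and ACGT in 4, near the shares of all windows. The TPS windows are grouped here by the measured change, and a link of either motif to the falls was not tested. The evening element AAAATATCT and the mitochondrial dysfunction motif were also searched on both strands and found in 0 of the 9 windows, against 2.79% and 2.08% of all windows. These matches describe letters in a window of fixed length, and binding was not measured.

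TPS1 (AT1G78580) lies on chromosome 1 (TAIR10.1, 29552340 to 29560912, minus strand) and its longest coding model has 17 coding exons. It was at 10.4, 9.47 and 10.3 RPKM in cfm6-1 replicates 1 to 3, against 11.2, 9.17 and 9.55 RPKM in WT replicates 1 to 3. The libraries of the genotypes overlapped. The log2 change was 0.02, with a 95% interval of -0.17 to 0.20 (limma adjusted p = 0.869). The other class I genes, TPS2, TPS3 and TPS4, were at 0 to 0.02 RPKM in every library and were not tested.

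TPS5 (AT4G17770), on chromosome 4 (9876172 to 9880386, plus strand), has 3 coding exons, as do the longest coding models of TPS6 to TPS11. It was at 8.43, 9.22 and 9.25 RPKM in cfm6-1, against 6.21, 5.18 and 5.40 RPKM in WT. Every cfm6-1 library lay above every WT library. The mean rose to 8.97 ± 0.47 RPKM in cfm6-1, against 5.60 ± 0.54 in WT (SD, n = 3 each), a log2 change of 0.60 (SE 0.07, limma adjusted p = 0.000304). TPS5 was the lowest of the 10 genes in both genotypes, with at least 798 reads in each library when reads are rebuilt from RPKM, gene length and depth.

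TPS11 (AT2G18700), on chromosome 2 (8108898 to 8112010, plus strand), was at 25.2, 22.0 and 26.4 RPKM in cfm6-1, against 72.8, 85.7 and 93.9 RPKM in WT. The lowest WT library was well above the highest cfm6-1 library. The log2 change was -1.73 (SE 0.10, limma adjusted p = 1.29e-05), and 1.18% of tested loci had a lower change. In WT it stood beside TPS8 at the top of the 10 genes, and in cfm6-1 its libraries overlapped those of TPS9 and KIN10.

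TPS6 (AT1G68020), on chromosome 1 (25496928 to 25500584, plus strand), was at 11.8, 11.1 and 11.2 RPKM in cfm6-1, against 23.8, 24.2 and 25.9 RPKM in WT. It fell to 46.2% of the WT mean, with little spread in either genotype (log2 change -1.05, SE 0.05, limma adjusted p = 6.96e-06). TPS5 and TPS6 moved in opposite directions. Their coding sequences are 71.2% identical over aligned bases, but the same measure gives 68.8% for TPS6 and the kinase gene KIN11. The ratio of TPS6 to TPS5 RPKM was 1.20 to 1.40 in cfm6-1 libraries and 3.82 to 4.80 in WT libraries.

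TPS8 (AT1G70290), on chromosome 1 (26470795 to 26474833, minus strand), was at 45.8, 43.2 and 52.0 RPKM in cfm6-1, against 80.8, 93.8 and 98.7 RPKM in WT. It fell to 51.5% of the WT mean (log2 change -0.94, SE 0.09, limma adjusted p = 0.000108). TPS9 (AT1G23870, chromosome 1, 8432179 to 8435656, plus strand) is the closest relative of TPS8 in these data, with 81.1% of aligned coding bases identical, the highest of the 21 class II pairs. It was at 28.3, 24.9 and 30.01 RPKM in cfm6-1, against 40.6, 42.1 and 45.9 RPKM in WT, and fell to 64.7% (log2 change -0.61, SE 0.08, limma adjusted p = 0.000366). TPS10 (AT1G60140, chromosome 1, 22176934 to 22181740, minus strand) was at 37.5, 34.2 and 32.8 RPKM in cfm6-1, against 58.6, 57.8 and 58.3 RPKM in WT. It fell to 59.8% (log2 change -0.73, SE 0.06, limma adjusted p = 3.39e-05). In each of these 3 genes all cfm6-1 libraries lay below all WT libraries.

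TPS7 (AT1G06410), on chromosome 1 (1954674 to 1958866, plus strand), was at 54.6, 47.6 and 60.4 RPKM in cfm6-1, against 53.7, 52.0 and 52.0 RPKM in WT. The WT libraries lay within the range of the cfm6-1 libraries. The log2 change was 0.04, with a 95% interval of -0.16 to 0.23 (limma adjusted p = 0.706). The sign of TPS1 and TPS7 turns with the scaling and with the libraries used, so neither has a direction.

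**Figure D1:**
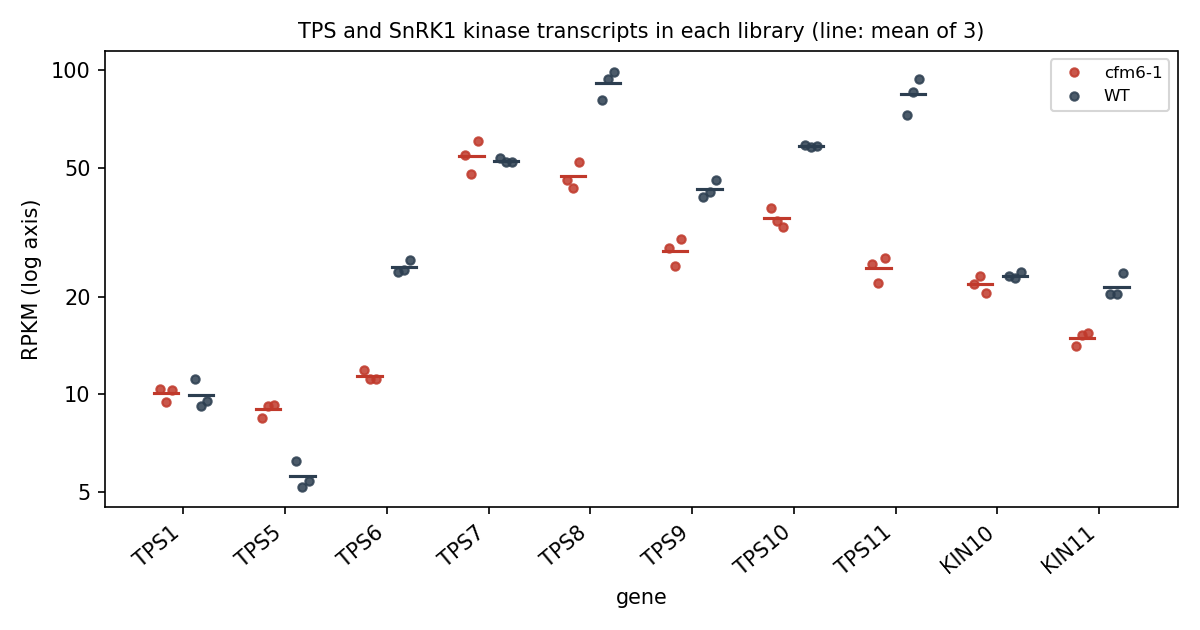
RPKM (log axis) of the 8 TPS and 2 SnRK1 kinase genes in each of 3 cfm6-1 (red, left) and 3 WT (dark, right) libraries, where points are libraries and lines are means. The groups do not overlap for TPS5, TPS6, TPS8 to TPS11 and KIN11, and TPS11 is at 22.0 to 26.4 in cfm6-1, against 72.8 to 93.9 in WT.

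The class II transcripts summed to 212, 192 and 222 RPKM in cfm6-1, against 336, 361 and 380 RPKM in WT, a ratio of means of 0.581. Their order changed with the genotype. In cfm6-1, TPS7 had the highest mean, 54.2 RPKM, followed by TPS8 at 47.0 RPKM, and their libraries overlapped. In WT, TPS8 had the highest mean, 91.1 RPKM, followed by TPS11 at 84.1 RPKM, and their libraries overlapped too. TPS7 made up 25.9 ± 1.23% of the class II sum in cfm6-1 and 14.7 ± 1.17% in WT (SD, n = 3 each). TPS11 made up 11.8 ± 0.25% in cfm6-1 and 23.4 ± 1.57% in WT. TPS10 made up 16.8 ± 1.73% in cfm6-1 and 16.3 ± 1.06% in WT, with overlapping libraries. In all libraries TPS11 and TPS7 stood in opposite order by genotype, with TPS11 at 0.437 to 0.463 times TPS7 in cfm6-1 and 1.36 to 1.81 times TPS7 in WT. The class II sum was 20.3 to 21.5 times the TPS1 level in cfm6-1 libraries and 30.2 to 39.8 times in WT libraries.

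**Figure D2:**
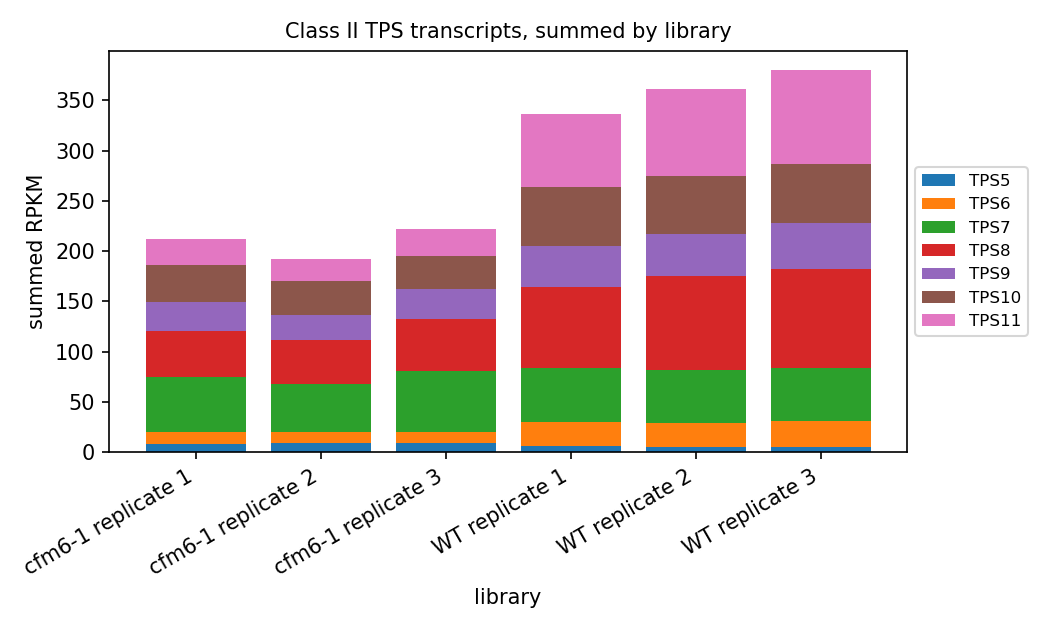
Summed RPKM of TPS5 to TPS11 in each library, with 1 colour per gene, cfm6-1 libraries on the left and WT libraries on the right. The sums are 192 to 222 in cfm6-1 and 336 to 380 in WT, and the TPS11 segment is 22.0 to 26.4 RPKM tall in cfm6-1 and 72.8 to 93.9 RPKM in WT.

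The kinase genes lie on chromosome 3, KIN10 (AT3G01090) at 31145 to 34670 and KIN11 (AT3G29160) at 11128620 to 11132105, both on the minus strand, and 77.4% of their aligned coding bases are identical. KIN11 was at 14.1, 15.3 and 15.4 RPKM in cfm6-1, against 20.3, 20.3 and 23.7 RPKM in WT. All cfm6-1 libraries lay below all WT libraries, and KIN11 fell to 69.5% of the WT mean (log2 change -0.49, SE 0.07, limma adjusted p = 0.000656). KIN10 was at 21.8, 23.1 and 20.5 RPKM in cfm6-1, against 23.1, 22.8 and 23.8 RPKM in WT, and the groups overlapped. Its log2 change was -0.09, with a 95% interval of -0.21 to 0.04 (limma adjusted p = 0.184). With other scalings KIN10 passed the threshold as lower, at -0.14 with median-of-ratios scaling (limma adjusted p = 0.0341) and -0.16 with quantile normalization (limma adjusted p = 0.0334). The ratio of KIN10 to KIN11, which a single factor per library cannot move, was 1.55, 1.52 and 1.33 in cfm6-1 and 1.14, 1.12 and 1.00 in WT. KIN12, another SnRK1 catalytic gene, was listed at 0 in every library. Over all 10 genes, the order of mean levels in cfm6-1 was TPS7, TPS8, TPS10, TPS9, TPS11, KIN10, KIN11, TPS6, TPS1 and TPS5. Among neighbours in that order, the libraries of TPS7 and TPS8, of TPS9 and TPS11 and of TPS11 and KIN10 overlapped. In WT the order was TPS8, TPS11, TPS10, TPS7, TPS9, TPS6, KIN10, KIN11, TPS1 and TPS5. There the libraries of TPS8 and TPS11, of TPS6 and KIN10 and of KIN10 and KIN11 overlapped.

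**Figure D3:**
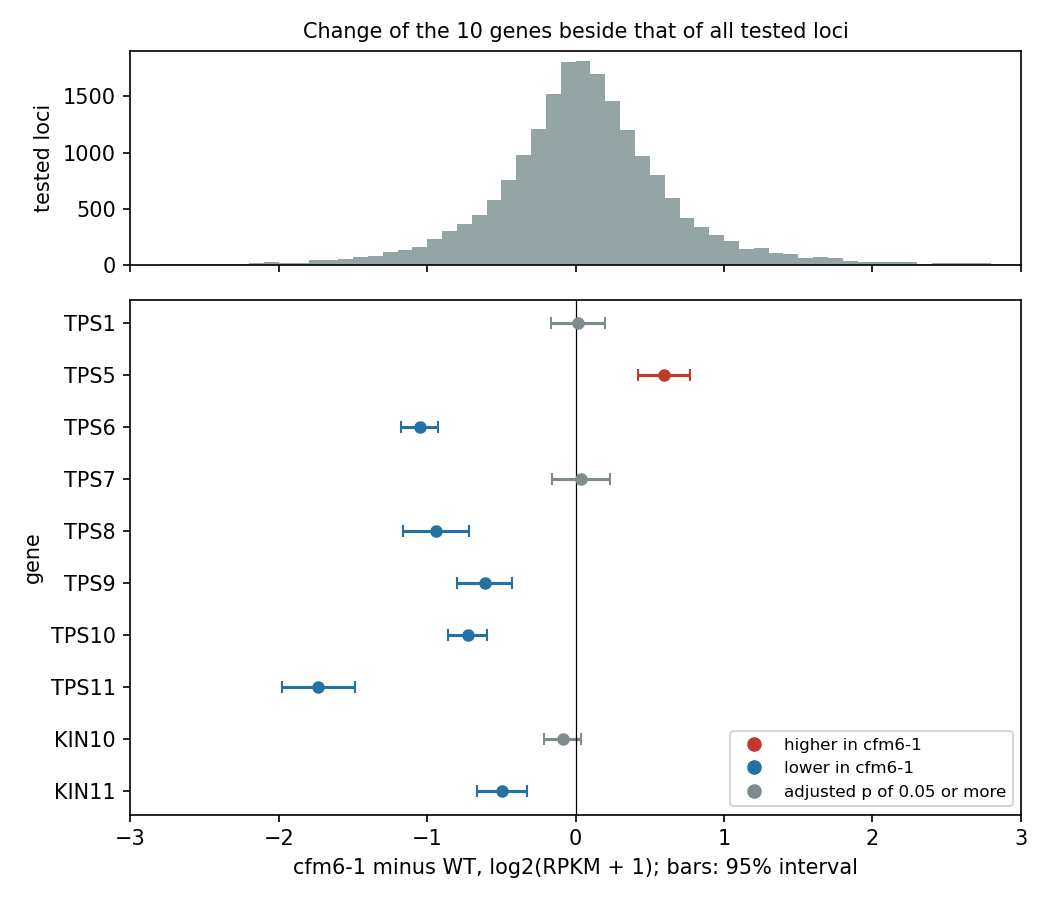
Change of each gene, cfm6-1 minus WT on the log2(RPKM + 1) scale with its 95% interval (bottom), under the histogram of the same change over tested loci (top, 140 loci beyond 3 not drawn). TPS11 is at -1.73, and the intervals of TPS1, TPS7 and KIN10 cross 0.

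Reads can be told apart between these genes. No 100-base window, the length of a read, was shared between annotated transcripts of any of the 45 pairs. The deposited largest share of multiply mapped reads was at most 0.0141 (TPS1). Rebuilt reads ranged from 798 to 15076 per gene and library. In the authors' deposited table, whose direction is that of library codes not tied to samples by the labels, TPS11 had a log2 fold change of -1.82 and an adjusted p of 0.0372. The authors' deposited table gives KIN11 an adjusted p of 0.0547, above 0.05, while the other 6 genes called here are below 0.05 in it.

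Libraries were estimated at 47.3 to 52.7 M reads. The locus taken as CFM6, AT4G13070, was at 1.23 to 1.32 RPKM in cfm6-1 and 3.69 to 4.10 RPKM in WT (limma adjusted p = 1.20e-05). Marker transcripts of organs also differed between the genotypes, where 38.6% of all tested loci were called higher and 30.2% lower. The 5 shoot markers summed to 6627 to 7565 RPKM in cfm6-1 and 12556 to 15009 RPKM in WT, and all 5 fell. Of 6 root markers 4 fell and 1, PYK10, rose. All 6 summed to 2269 to 2704 RPKM in cfm6-1 and 1679 to 1890 RPKM in WT, a sum made up mostly of PYK10. Without PYK10 they summed to 34.2 to 39.98 RPKM in cfm6-1 and 67.8 to 80.6 RPKM in WT. The 4 phloem companion cell markers split, 2 higher and 2 lower, with sums of 253 to 259 RPKM in cfm6-1 and 243 to 247 RPKM in WT. Among them SUC2, the sucrose loader of the phloem, fell to 31.9% of WT and AHA3 to 84.6%, while PP2-A1 rose to 166% and APL to 134%. Seed markers summed to at most 2.39 RPKM and floral organ markers to 5.95 to 7.91 RPKM in any library. In WT the seed genes OLEO1 and CRC were listed at 0, and in cfm6-1 at 0 to 0.14 and 0 to 0.59 RPKM. For these genes and for CRA1 the genotypes overlapped. Of the other seed genes, SESA1 was at 0.32 to 0.63 RPKM in cfm6-1 and 0 to 0.06 RPKM in WT. PAP85 went the other way, at 0.13 to 0.32 RPKM in cfm6-1 and 0.63 to 1.31 RPKM in WT. All of these seed genes were below the filter and not tested. The part of organ makeup in the changes of the TPS and SnRK1 genes was not tested, and in whole seedlings fewer cells of a type and less RNA per cell cannot be told apart.

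The partner subunits of SnRK1 changed unequally. KINβ1 (AT5G21170), a β subunit known to be raised in darkness, was at 30.8, 29.8 and 28.5 RPKM in cfm6-1, against 96.1, 99.4 and 105 RPKM in WT. It fell to 29.7% of the WT mean (log2 change -1.72, SE 0.05, limma adjusted p = 1.39e-06), and 1.22% of tested loci had a lower change. KINβ2 (AT4G16360) rose, to 21.7 ± 1.27 RPKM in cfm6-1 against 18.4 ± 0.20 in WT (limma adjusted p = 0.00698). KINβ3 (AT2G28060), a short β subunit of plants, was at 12.7 ± 0.53 RPKM in cfm6-1 and 12.9 ± 0.41 in WT (SD, n = 3 each), with a 95% interval of -0.15 to 0.09 on the log2 scale. KINβ1 thus made up 45.5 to 47.9% of the β subunit transcripts by RPKM in cfm6-1 libraries and 75.3 to 76.8% in WT libraries.

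Of the γ-type genes, KING1 (AT3G48530) was at 96.4 to 100.0 RPKM in cfm6-1 and 135 to 144 RPKM in WT, and fell to 71.1% (limma adjusted p = 8.14e-05). SNF4 (AT1G09020), the βγ subunit that works in the plant complex, was at 17.8 ± 0.40 RPKM in cfm6-1 and 19.7 ± 0.16 in WT, a fall to 90.3% (limma adjusted p = 0.0189). The call for SNF4 is not kept without cfm6-1 replicate 1 or 3 or WT replicate 1 or 3, where the limma adjusted p was 0.0502 to 0.0589 and the log2 change -0.138 to -0.126, nor with the replicate block (limma adjusted p = 0.0524). Over the list of 6 partner genes, 1 rose, 3 fell, 1 did not pass and KIN12 was not tested, with a median log2 change of -0.14. Among all tested loci, 38.6% were higher and 30.2% lower. The activating kinases GRIK1 and GRIK2 did not pass (limma adjusted p = 0.398 and 0.254), and multiply mapped shares of 0.969 and 1 make their levels uncertain.

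**Figure D4:**
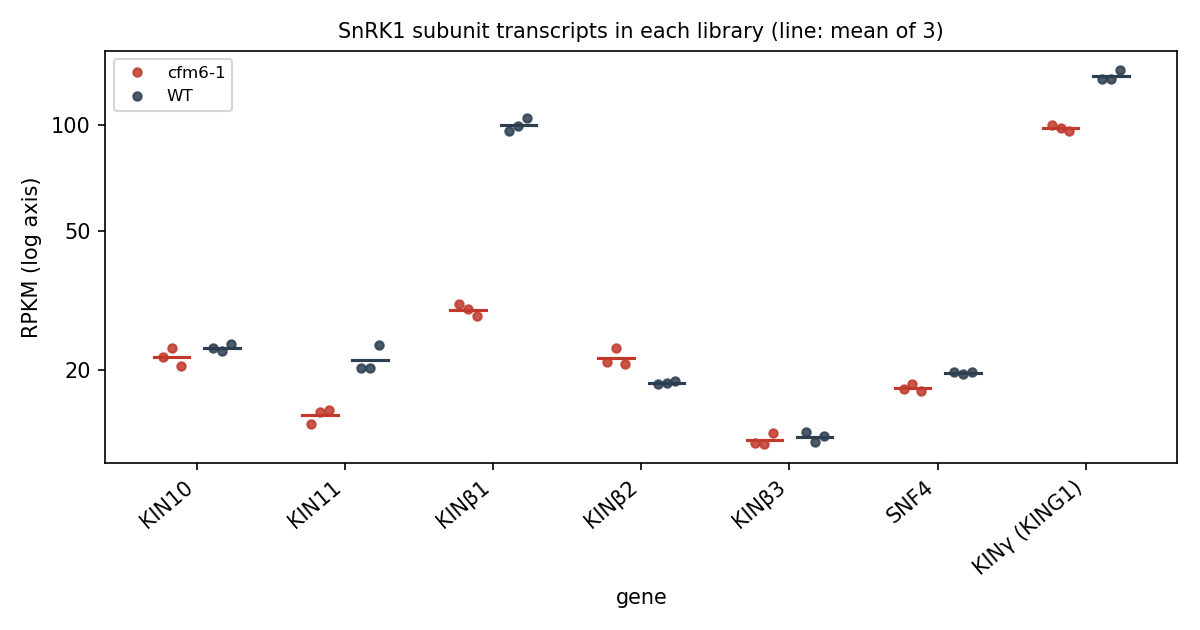
RPKM (log axis) of SnRK1 catalytic, β and γ-type subunit genes in each library, cfm6-1 (red, left) and WT (dark, right), with lines at the means. KINβ1 shows the widest gap, 28.5 to 30.8 in cfm6-1 against 96.1 to 105 in WT, and KINβ3 and KIN10 overlap.

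Proteins that bind SnRK1 moved both ways. Of 5 such genes, FLZ3, FLZ6 and MARD1 of the FLZ zinc finger family fell and FLZ10 and PRL1 rose. The shares over all tested loci were 30.2% lower and 38.6% higher. FLZ3 was at 21.1 to 32.7 RPKM in cfm6-1 and 52.4 to 59.9 RPKM in WT. FLZ6 and FLZ10, both known to restrain SnRK1, changed in opposite directions, FLZ6 to 67.7% of WT (limma adjusted p = 0.000509) and FLZ10 to 159% (limma adjusted p = 0.000117).

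Genes of T6P and trehalose breakdown moved both ways. Of 10 TPP genes, 8 were tested: 4 rose, 3 fell and 1 did not pass, beside 38.6% of all tested loci higher and 30.2% lower. Among the 4 rises, TPPD and TPPI reached the filter through cfm6-1, where they are high, and TPPG has a multiply mapped share of 1, so the count gives no direction for the list. TPPI was at 3.83, 3.23 and 6.34 RPKM in cfm6-1, against 1.01, 0.88 and 0.94 RPKM in WT (limma adjusted p = 0.000389, and 0.00134 with no filter on low values). TPPD was at 2.37, 2.37 and 2.52 RPKM in cfm6-1, against 0.63, 0.64 and 0.66 RPKM in WT (limma adjusted p = 1.32e-05, and 3.10e-05 with no filter on low values). TPPB and TPPH fell, to 59.7% and 60.3% of WT. TPPC, below the filter, was at 0.05 to 0.06 RPKM in cfm6-1 and listed at 0 in WT. TPPF, also below it, was at 0.12 to 0.17 RPKM in cfm6-1 and at 0.24 RPKM in WT, with a multiply mapped share of 1. Without TPPF and TPPG, the TPP transcripts summed to 26.7 to 35.6 RPKM in cfm6-1 and 22.7 to 26.2 RPKM in WT. TRE1, the trehalase gene, was at 4.10, 4.70 and 3.96 RPKM in cfm6-1, against 11.6, 12.7 and 13.6 RPKM in WT, and fell to 33.7% (log2 change -1.38, SE 0.08, limma adjusted p = 1.19e-05).

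bZIP63 (AT5G28770), which KIN10 phosphorylates, was at 26.0, 26.3 and 26.6 RPKM in cfm6-1, against 68.3, 67.2 and 71.0 RPKM in WT. It fell to 38.2% of WT (log2 change -1.35, SE 0.04, limma adjusted p = 1.42e-06). bZIP9 and bZIP25, group C partners of the same dimer network, fell to 56.2% and 67.4%. Of 9 bZIP genes linked to SnRK1, 5 fell, 2 rose and 2 did not pass (median log2 change -0.56), beside 30.2% of all tested loci lower and 38.6% higher. Multiply mapped shares were 1 at the 5 group S1 genes, bZIP2 among them, so their values are uncertain; of the 4 group C genes, 3 fell and none rose. The 2 rises, bZIP11 and bZIP44, were named after their values were seen.

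Of 10 listed transcripts known to be raised by SnRK1 in starvation, 9 fell and 1 rose in cfm6-1, with a median log2 change of -2.02. Over all tested loci 30.2% were lower and 38.6% higher, with a median change of 0.05. SEN5 (AT3G15450) was at 345, 316 and 382 RPKM in cfm6-1, against 1719, 1815 and 1969 RPKM in WT (limma adjusted p = 3.10e-06). DRM2 (AT2G33830), a dormancy-associated gene, was at 483, 504 and 459 RPKM in cfm6-1, against 1535, 1665 and 1679 RPKM in WT (limma adjusted p = 3.89e-06). BGAL4, a β-galactosidase, fell to 26.4% and DIN10 to 24.1% of WT. EXL1, which is known to rise with carbon shortage, went the other way and was named after its values were seen. It was at 90.1, 97.7 and 152 RPKM in cfm6-1, against 13.1, 15.7 and 20.7 RPKM in WT (limma adjusted p = 4.71e-05). Falls of carbon starvation genes in these data were known when the list was written. The count therefore describes the listed loci only and is no independent support for the falls of TPS8 to TPS11.

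**Figure D5:**
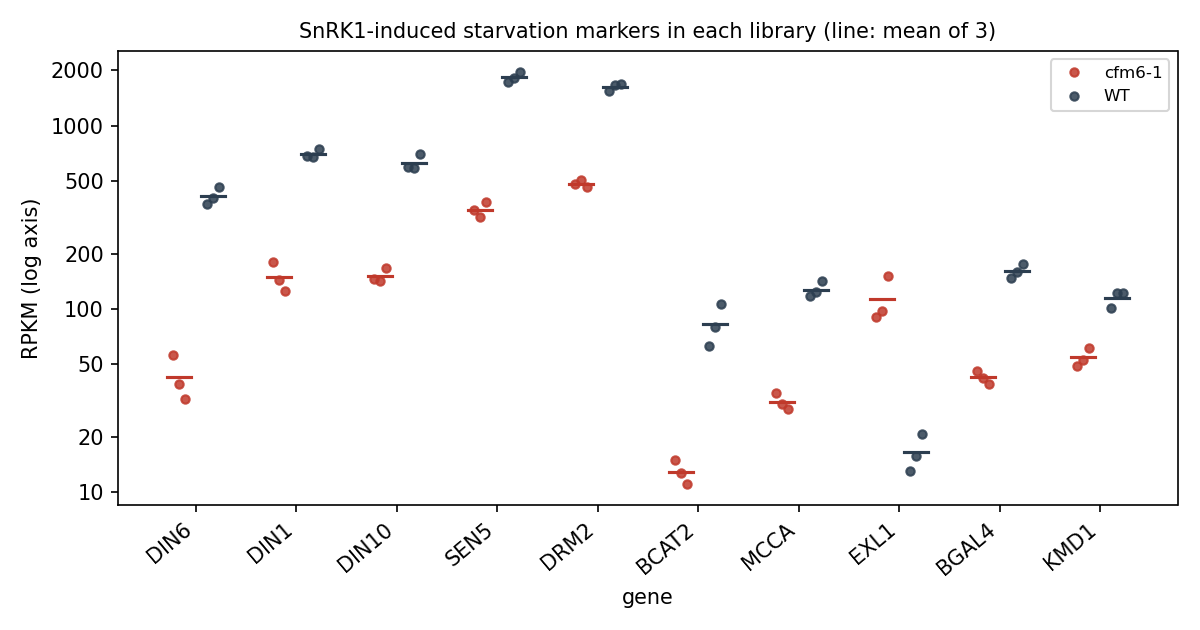
RPKM (log axis) of 10 SnRK1-induced starvation markers in each library, cfm6-1 (red, left) and WT (dark, right), with lines at the means. In 9 genes all cfm6-1 libraries lie below all WT libraries, and EXL1 is at 90.1 to 152 in cfm6-1 against 13.1 to 20.7 in WT.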

How the data were processed

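RNA from 3 cfm6-1 and 3 WT seedling samples was sequenced as 100 bp single-end reads, per the labels' protocols. The build is TAIR10, per the submitters' processing notes; for aligner, counter, annotation release and strand, each was not given in the sources used here. The authors deposited RPKM with 2 decimals, a unit read from the values, and, by its name, the largest fraction of multiply mapped reads per locus. Their deposited comparison table adds model lengths, log2 fold changes and, per locus, a p-value before and after adjustment. Its 6 columns of per-library values and a table of mapping totals stand under codes that no label ties to samples and were not used here.

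Where 3 or more libraries reached 1 RPKM, a locus entered a fit of log2(RPKM + 1) on genotype (limma 3.58.1, R 4.3.3) with a variance trend and Benjamini-Hochberg adjustment over 20047 loci. The pseudocount understates changes of low genes; percentages and folds are ratios of mean RPKM. The code of the fit was checked on simulated data, which does not test the calls made here. Depth was read from steps of 1 read in genes under 0.3 kb (426 to 479 values per library, 100% within 0.1 of a whole read). Replicates differed by more than sampling noise (chi-square divided by its degrees of freedom, 10.5 to 25.1). The limma p-values weigh the genotype difference against the spread between these samples, which limma moderates with the trend over all tested loci.

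Coding identity comes from a global alignment of the longest coding model of each gene, and sequences and coordinates from RefSeq's TAIR10.1. Between a TPS and a kinase gene this identity reached 68.8%, so values near that are close to the floor of the measure. The promoter window of 1 of the 10 genes is not reported here. A locus with a multiply mapped share above 0.1 is called uncertain. The genes and lists were chosen with earlier results of these data known. By rule, any locus of a list of up to 6 may be named. Of longer lists, up to 4 loci may be named in order of adjusted p, and also loci at 0 or below the filter. Organ marker lists are given as sums, with single markers named beside them. Alternatives were another pseudocount, no filter or one at 10 RPKM, 2 scalings, a replicate block, limma-voom on rebuilt reads and each library left out.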

Additional observations from a re-analysis of the deposited data

How the results depend on the processing

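The calls and directions of TPS5, TPS6, TPS8 to TPS11 and KIN11 were the same under every alternative that tested them; TPS5 was not tested with the filter at 10 RPKM. Their highest limma adjusted p over the alternatives was 0.00292 (KIN11), and TPS11 ranged from -1.84 to -1.65. KIN10 passed as lower with median-of-ratios scaling (-0.14, limma adjusted p = 0.0341) and quantile normalization (-0.16, limma adjusted p = 0.0334), and the cause was not tested. TPS1, 0.02 as reported, turned to -0.036 and -0.070 with these scalings and to between -0.036 and 0.092 with a library left out. TPS7, 0.04 as reported, turned to -0.019 and -0.065 and to between -0.043 and 0.13. GRIK1 turned to -0.0035 and -0.040 with the 2 scalings. These scalings moved the median change of all loci to -0.00078 and -0.02, against 0.05. The filter at 10 RPKM tests fewer genes: it left 4812 loci higher and 3696 lower, 0 of the members higher, and 13 pathway loci higher rather than 22. Without 1 library, 6726 to 7240 loci were higher and 5106 to 5725 lower, and the members stayed at 1 higher and 6 lower. Same-numbered libraries did not deviate together over all tested loci (correlations of 0.03, -0.14 and -0.0023). The labels give no pairing, and these correlations cannot exclude a batch that touches part of the loci. With the replicate block 7423 loci were higher and 5832 lower, the 10 genes kept their calls, and SNF4 had a limma adjusted p of 0.0524.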

Other observations

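TOR, the kinase that promotes growth when sugar is ample and that SnRK1 opposes, was at 12.6, 10.9 and 12.5 RPKM in cfm6-1, against 13.3, 13.1 and 13.3 RPKM in WT, and did not pass (limma adjusted p = 0.0996). In the list of 9 genes of the TOR complex and its targets, 4 rose, 1 fell and 4 did not pass, with a median log2 change of -0.01. Of all tested loci 38.6% were higher and 30.2% lower, so the count of rises is near that of any locus. S6K2, a ribosomal protein kinase downstream of TOR, was at 59.1, 42.8 and 61.9 RPKM in cfm6-1, against 12.03, 16.5 and 13.9 RPKM in WT (limma adjusted p = 5.17e-05). The genes of its substrate, RPS6A and RPS6B, rose 1.54-fold and 1.31-fold. RAPTOR1B, which holds substrates to the TOR complex, fell to 74.2% of WT (limma adjusted p = 0.000267). TOR was named after its values were seen.

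Of 15 genes of sucrose metabolism, 14 were tested: 8 rose, 3 fell and 3 did not pass. Over all tested loci, 38.6% were higher and 30.2% lower. SUS2, 1 of the 8, reached the filter through cfm6-1, where it is high, at 1.24 to 1.40 RPKM in cfm6-1 and 0.54 to 0.67 RPKM in WT, and it was named after its values were seen. UGP1, an enzyme that makes the UDP-glucose used by TPS, was at 60.8, 65.8 and 64.5 RPKM in cfm6-1, against 44.0, 41.3 and 41.9 RPKM in WT (limma adjusted p = 5.27e-05). HXK1, the hexokinase that also acts as a glucose sensor, rose 1.57-fold (limma adjusted p = 5.15e-05). SUS3, a sucrose synthase, was at 10.2, 12.9 and 13.9 RPKM in cfm6-1, against 3.10, 4.27 and 3.96 RPKM in WT (limma adjusted p = 6.43e-05). SPSA2, a sucrose phosphate synthase, rose 1.64-fold, and SPSB, below the filter, was at 0.20 to 0.35 RPKM in cfm6-1 and 0.45 to 0.62 RPKM in WT.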
